A study of Mus musculus with 28 samples.

Results

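Skin taken from the wound site of MLKL+/+ mice on day 5 was compared with skin taken on day 3. The libraries were chosen by the day in their labels, 4 for day 5 and 4 for day 3, which makes 8 of the 28 libraries of a course that was sampled on 7 days. All genes of the count table were used, and 16307 of its 29068 gene symbols had enough reads in the 8 libraries to be tested. The mice were on the C57BL/6J background, 8 weeks old and housed one to a cage, and the study describes its controls as littermates. They received no treatment other than a punch wound of 6 mm on the back that reached the fascia. Both days share all of this. The whole wound with its scab and epithelial margin was collected, so that each library can hold RNA of immune cells, granulation tissue, epidermis, hair follicles, fat and muscle of the wound bed. Fewer cells of a type and less RNA per cell cannot be told apart in such libraries. Nothing in the labels ties a library to a particular mouse, and p-values measure the spread between these libraries.

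Skin repair runs through overlapping phases. In the inflammatory phase, neutrophils and then monocytes enter the wound, drawn by chemokines and by cytokines such as interleukin 6, and the epidermis at the margin switches to the keratins and antimicrobial peptides of the injured state. In the proliferative phase, fibroblasts lay down a matrix of fibronectin, tenascins and collagens, some of them become contractile myofibroblasts, vessels grow in, and keratinocytes close the surface and stratify. Days are those of the labels, which begin with day 0, while the study's text counts the day of injury as day 1 and lists no day 0, so that the exact time after injury is uncertain by a day.

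The libraries were of nearly equal depth, with total counts of 38946853 to 39114643 on day 3 and 39321598 to 40368542 on day 5. The day 3 libraries varied by 6.205% around each other (biological coefficient of variation) and the day 5 libraries by 10.72%. Most of the day 5 spread came from replicate 4, without which it was 4.794%. Replicate 4 of day 5 held more of short genes and less of long genes than its day mates. Across genes, the rank correlation of its deviation with gene length was -0.571, against 0.284 to 0.369 in the other day 5 libraries and -0.0817 to 0.129 on day 3. The deviations of a day's 4 libraries sum to about 0, so that the positive values of its day mates are in part the counterpart of its own. With the genes in 10 equal groups by length, the group of the shortest, up to 1260 bases, lay 0.200 above the day's mean on the log2 scale and the group of the longest, from 9189 bases, lay at -0.238. Counts over all genes are therefore given with and without it, and those of a list where its absence moved them by over 1.5 times or by 2 genes or more. Xist had 0 to 6 counts and Ddx3y of the Y chromosome 2814 to 3722 counts in all 8 libraries, so that no library stood apart by sex. The labels give no batch.

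**Figure D1:**
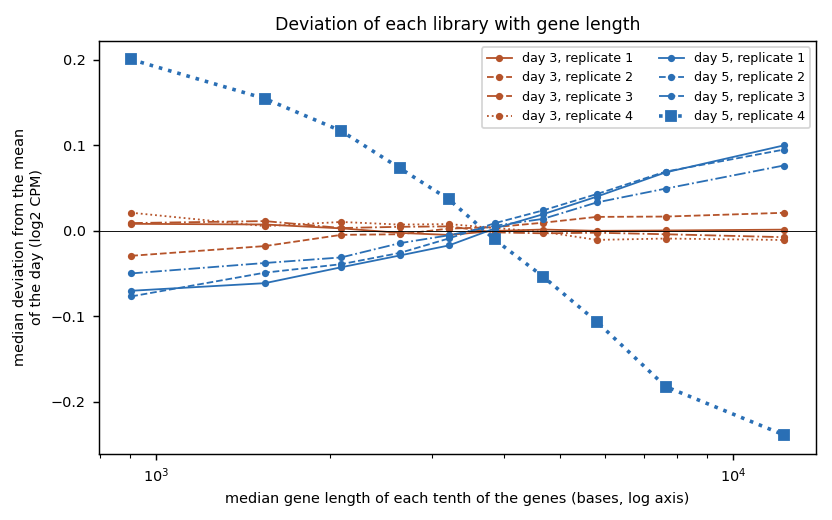
Median deviation of each library from the mean of its day (log2 CPM, library-scaled counts) against gene length, in 10 equal groups of the 16307 genes (bases, log axis); 1 line per library, day 3 in orange and day 5 in blue. Replicate 4 of day 5 (thick dotted line, squares) falls from 0.200 to -0.238, while the day 3 libraries stay near 0.

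The study's own criteria ask for a log2 fold change above 1.5 or below -1.5 and for an unadjusted P under 0.05. By these, in the edgeR fit, 213 genes were higher on day 5 (1.31% of those tested) and 100 were lower (0.613%). The study applied its criteria to DESeq2, which here gave 514 higher and 201 lower, with all genes that had a count. At an adjusted p under 0.05 with no limit on size, edgeR called 2424 genes higher (14.9%) and 2372 lower (14.5%), and 4796 in either direction (29.4%). Without replicate 4 of day 5, the edgeR counts were 232 higher and 123 lower by the study's criteria, and 3324 (20.1%) and 3400 (20.6%) at the adjusted p. The 4 libraries of a day did not overlap those of the other day in 5027 genes (30.8%). For each gene without overlap, the exact two-sided permutation test gave p = 0.0286, the smallest that 4 against 4 libraries allow. The median log2 fold change over all genes tested was -0.0031.

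**Figure D2:**
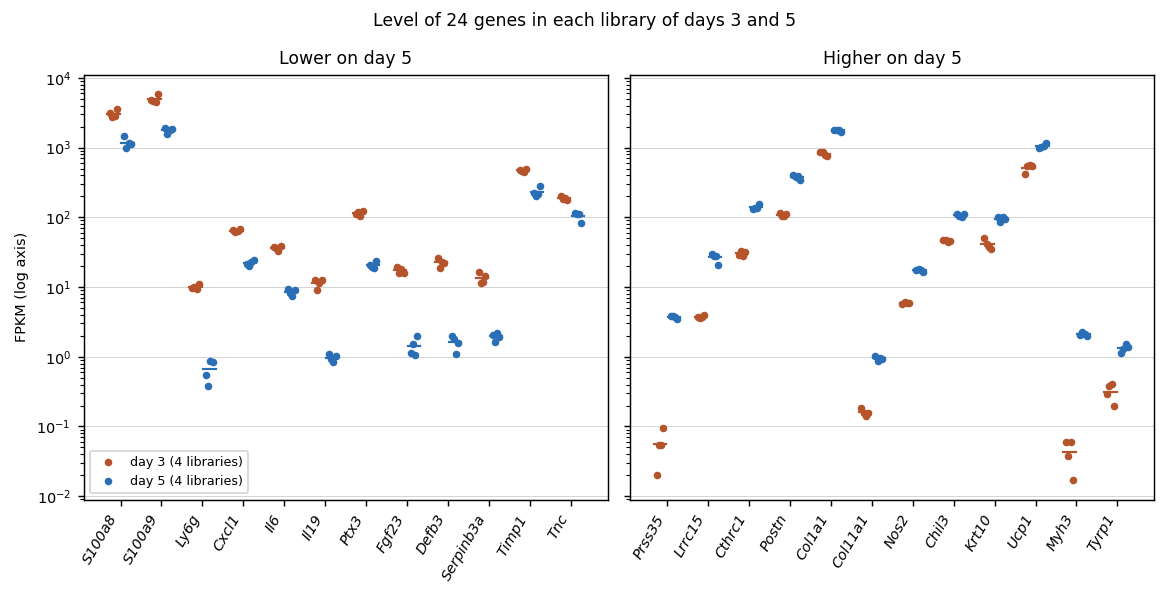
FPKM (reads scaled to gene length and library total, log axis) of 24 genes in each library of day 3 (orange) and day 5 (blue); each point is 1 library and each short line the mean of 4. The days do not overlap in any of the 24 genes, as they do not in 5027 of the 16307 genes tested (30.8%). Several of the 24 were chosen by a rule that asks for no overlap, or after their values were seen, so this is a description. The distance between the days is widest for Prss35 and Myh3 on the right and for Ly6g and Defb3 on the left.

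The share of each list called is to be read against 14.9% of all genes higher and 14.5% lower, and, where replicate 4 of day 5 is left out, against 20.1% and 20.6%. Transcripts of neutrophils were lower on day 5. Of 20 neutrophil genes tested, 16 fell, 1 rose and 3 were not called at the adjusted p (80% lower, against 14.5% of all genes), and the median log2 fold change of the list was -0.60. S100a8 and S100a9 encode the subunits of calprotectin, the most abundant protein of the neutrophil cytosol. S100a8 stood at 3152, 2705, 2835 and 3510 FPKM in the 4 day 3 libraries and at 1439, 977, 1151 and 1140 FPKM on day 5, 2.62-fold lower (log2 fold change -1.39 with a standard error of 0.11, edgeR adjusted p = 6.74e-07). S100a9 went from 4839, 4609, 4553 and 5881 to 1926, 1581, 1812 and 1829 FPKM (log2 fold change -1.49 with a standard error of 0.09, edgeR adjusted p = 4.79e-08). All day 5 values of both genes lay well under the lowest day 3 value. In which cells these genes were transcribed was not measured. Ly6g, the surface antigen by which mouse neutrophils are sorted, dropped furthest, from 9.55, 10.0, 9.26 and 10.9 to 0.556, 0.375, 0.861 and 0.842 FPKM, 15.2-fold (log2 fold change -3.92 with a standard error of 0.19, edgeR adjusted p = 9.31e-09). Cxcr2, the receptor that leads neutrophils along CXC chemokines, was 2.18-fold lower (log2 fold change -1.12 with a standard error of 0.05, edgeR adjusted p = 6.52e-09), and Itgam, an integrin shared with monocytes, 1.43-fold lower (log2 fold change -0.51 with a standard error of 0.07, edgeR adjusted p = 0.000127). Mmp8 and Il1r2 fell by less (log2 fold change -0.29 and -0.27, edgeR adjusted p = 0.00125 and 0.00248), and Fpr1, Ltf and G0s2 were not called. The member that rose was Ngp, a secondary granule gene of immature neutrophils, at 1.42, 2.27, 2.16 and 2.52 FPKM on day 3 and 3.67, 3.05, 4.51 and 5.41 FPKM on day 5 (log2 fold change 0.98 with a standard error of 0.21, edgeR adjusted p = 0.0031). Ly6g belongs to a family of near-identical genes between which reads may be split.

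Of 22 inflammatory cytokines tested, 13 fell (59.1%, against 14.5% of all genes) and 4 rose (18.2%, near the 14.9% of all genes), with a median log2 fold change of -0.38. Interleukin 6, which drives the acute phase response, fell 4.33-fold. Il6 stood at 38, 36.7, 32.9 and 38.2 FPKM on day 3 and at 9.47, 8.07, 7.48 and 8.94 FPKM on day 5 (log2 fold change -2.11 with a standard error of 0.08, edgeR adjusted p = 1.63e-09) and the days lay far apart. Il19, a cytokine of the interleukin 10 family made by keratinocytes and myeloid cells, had the lowest fold change of the list. It went from 12.4, 9.18, 11.4 and 12.4 to 1.1, 0.924, 0.843 and 1.02 FPKM, 11.8-fold lower (log2 fold change -3.56 with a standard error of 0.14, edgeR adjusted p = 1.56e-09). Il33, an alarmin held in nuclei, was 1.87-fold lower (log2 fold change -0.91 with a standard error of 0.05, edgeR adjusted p = 5.74e-08). Il1b, the classical product of the inflammasome, fell by less, from 356, 364, 379 and 417 to 303, 253, 292 and 287 FPKM (log2 fold change -0.43 with a standard error of 0.07, edgeR adjusted p = 0.000391).

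Among the 4 cytokines that rose was Tnf. Tnf, which activates endothelium and macrophages, stood at 8.62, 9.66, 9.46 and 11.2 FPKM on day 3 and at 14.2, 12.2, 14.2 and 14.7 FPKM on day 5, 1.41-fold higher (log2 fold change 0.50 with a standard error of 0.09, edgeR adjusted p = 0.00105). The days did not overlap, so that Tnf and Il6 moved in opposite directions. Tslp, an epithelial cytokine that acts on dendritic cells, was 2.04-fold higher, at 1.45, 1.27, 1.65 and 1.65 FPKM and then 3.74, 2.48, 3.11 and 3.03 FPKM (log2 fold change 1.02 with a standard error of 0.17, edgeR adjusted p = 0.000511).

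Of 30 chemokines tested, 16 fell (53.3%) and 5 rose (16.7%, near the 14.9% of all genes), with a median log2 fold change of -0.36. Ccl6 and Ccl9, which attract monocytes, were lower by 1.28-fold and 1.5-fold, and Cxcl12, which holds CXCR4-bearing cells, by 1.63-fold (adjusted p = 0.000855, 1.64e-05 and 1.92e-07). Cxcl1, a neutrophil attractant, stood at 65.8, 60.5, 63.1 and 68.7 FPKM on day 3 and at 21.1, 19.7, 22.5 and 24.1 FPKM on day 5, 2.98-fold lower (log2 fold change -1.57 with a standard error of 0.07, edgeR adjusted p = 6.52e-09). Its neighbours on chromosome 5, Cxcl2 and Cxcl3, attract the same cells and did not follow it. Cxcl2 was at 236, 246, 248 and 328 FPKM on day 3 and 341, 284, 305 and 376 FPKM on day 5 (log2 fold change 0.29, adjusted p = 0.0666, 95% interval 0.02 to 0.56), and Cxcl3 likewise was not called (log2 fold change 0.20, adjusted p = 0.159). Without replicate 4 of day 3, which was the highest of its day in both genes, Cxcl2 was called higher at 0.42 (adjusted p = 0.00533) and Cxcl3 at 0.31 (adjusted p = 0.0219). Of the whole list, 18 fell without replicate 4 of day 5, 8 rose without replicate 4 of day 3 or with a replicate block, and 3 rose in a fit to all 28 libraries. The lowest fold change among the chemokines was that of Ccl20, which attracts CCR6-bearing lymphocytes and dendritic cells, at 3.84, 2.65, 2.9 and 2.59 FPKM and then 0.556, 0.845, 0.345 and 0.825 FPKM (log2 fold change -2.23 with a standard error of 0.27, edgeR adjusted p = 3.30e-05). Cxcl13, which attracts B cells, had the highest, 2.13-fold up, from 30.2, 32.2, 29.9 and 33.5 to 71.2, 59.6, 62.6 and 77.3 FPKM (log2 fold change 1.09 with a standard error of 0.08, edgeR adjusted p = 5.49e-07).

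The promoters of Il6, Cxcl1 and Cxcl2 are shown because all 3 hold the same binding motif of NF-kB, the transcription factor of the inflammatory response, while their transcripts differed in the step from day 3 to day 5. The motif searched was GGGA, then any base, then TTTCC, on both strands, in the 250 bases before each start in the RefSeq promoter table (GRCm38.p6). It stood in 117 of 32851 promoters of the table (0.356%). Each line gives 100 bases around the match on the gene's strand, 5′ to 3′, with the match in capitals. The windows are chr5:30013014-30013113 for Il6, chr5:90891145-90891244 for Cxcl1 and chr5:90903799-90903898 for Cxcl2, all on the plus strand and upstream of the first exon.
Il6: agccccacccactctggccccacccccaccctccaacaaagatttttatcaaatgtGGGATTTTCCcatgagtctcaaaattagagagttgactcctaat
Cxcl1: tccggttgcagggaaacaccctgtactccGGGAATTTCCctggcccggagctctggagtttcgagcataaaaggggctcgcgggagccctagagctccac
Cxcl2: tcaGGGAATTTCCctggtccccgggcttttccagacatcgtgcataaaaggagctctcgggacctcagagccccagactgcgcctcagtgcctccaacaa
Among the 15 cytokines and 22 chemokines that were tested and found in the promoter table, the motif stood in the promoters of Il6, Csf1, Cxcl1, Cxcl2 and Cxcl3. Il6, Cxcl1 and Csf1 (log2 fold change -0.20, adjusted p = 0.00795) fell and Cxcl2 and Cxcl3 were not called, and of the cytokines and chemokines without it others also fell. A match is a description of the sequence and was not tested as a binding site here.

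Further large decreases were those of single genes. Ptx3, a long pentraxin that opsonizes microbes, stood at 112, 119, 104 and 121 FPKM on day 3 and at 20.7, 19.3, 18.8 and 23.4 FPKM on day 5, 5.6-fold lower (log2 fold change -2.48 with a standard error of 0.08, edgeR adjusted p = 5.66e-10). Il13ra2, the decoy receptor for interleukin 13, was 4.25-fold lower (log2 fold change -2.09 with a standard error of 0.11, edgeR adjusted p = 1.99e-08), and Ifitm1, an interferon-induced membrane protein, 3.76-fold lower (log2 fold change -1.91 with a standard error of 0.07, edgeR adjusted p = 9.41e-10). The gene with the largest fall by the rule for named genes was Fgf23, known as the phosphate-regulating hormone of bone. It stood at 19.6, 16, 18.4 and 15.7 FPKM on day 3, and at 1.14, 1.53, 1.05 and 1.98 FPKM on day 5, 12.3-fold lower (log2 fold change -3.62 with a standard error of 0.15, edgeR adjusted p = 2.91e-09). Its mean level was 0.0474 FPKM on day 0 and 0.0901 FPKM on day 7.

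Markers of monocytes and classically activated macrophages fell in 10 of 15 genes tested and rose in 3, with a median log2 fold change of -0.51. Cd14, the lipopolysaccharide coreceptor, was not called (log2 fold change -0.22, adjusted p = 0.0626, and -0.27 with adjusted p = 0.00274 without replicate 4 of day 5), and Ifitm6, a myeloid interferon-induced membrane protein, fell 2.02-fold (log2 fold change -1.01 with a standard error of 0.08, edgeR adjusted p = 4.32e-07). The highest fold change belonged to Nos2, the inducible nitric oxide synthase by which classical activation is usually recognised. Nos2 stood at 5.68, 6.15, 5.92 and 5.94 FPKM on day 3 and at 17.7, 18.2, 17.5 and 16.2 FPKM on day 5, 2.91-fold higher (log2 fold change 1.54 with a standard error of 0.06, edgeR adjusted p = 8.40e-10). All day 5 libraries were alike and far above day 3, in the opposite direction to most of the list.

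Markers of resident and alternatively activated macrophages were higher in 9 of 20 genes (45%) and lower in 3 (15%, near the 14.5% of all genes), with a median of 0.10. Leaving out replicate 4 of day 5, 11 were higher, without replicate 3 of either day 1 was lower, and in a fit to all 28 libraries 4 were higher and 0 lower. Chil3, which encodes the secreted lectin Ym1, rose 2.31-fold from 47.2, 46.8, 44.3 and 45.4 FPKM to 113, 104, 101 and 112 FPKM (log2 fold change 1.21 with a standard error of 0.06, edgeR adjusted p = 6.52e-09). Retnla, encoding another secreted product of interleukin 4 stimulated macrophages, rose 2.65-fold, with 12.9, 18.5, 13.1 and 14.5 FPKM on day 3 and 35.4, 38.7, 32.8 and 51.1 FPKM on day 5 (log2 fold change 1.41 with a standard error of 0.15, edgeR adjusted p = 9.04e-06). Chil3 and Nos2 thus rose together, although textbooks assign them to opposite states of activation. Arg1, the arginase gene of the same list, was not called (log2 fold change -0.08, edgeR adjusted p = 0.458). The mannose receptor Mrc1 fell 1.23-fold (log2 fold change -0.30 with a standard error of 0.06, edgeR adjusted p = 0.0021), while F13a1, a clotting factor subunit of tissue macrophages, rose 1.3-fold (log2 fold change 0.38 with a standard error of 0.05, edgeR adjusted p = 0.000104).

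In a list of lipid-associated and lysosomal macrophage genes, 7 of 16 rose (43.8%) and 3 fell (18.8%, near the 14.5% of all genes). With replicate 4 of day 5 left out, 6 fell (37.5%, against 20.6%), and in a fit to all 28 libraries 1 fell. The median log2 fold change of this list was 0.02. Apoe, the apolipoprotein that carries lipid out of macrophages, rose 1.5-fold (log2 fold change 0.59 with a standard error of 0.06, edgeR adjusted p = 4.92e-06), and Atp6v0d2, a subunit of the lysosomal proton pump, 2.62-fold (log2 fold change 1.39 with a standard error of 0.10, edgeR adjusted p = 2.46e-07). Lgmn (log2 fold change -0.40, edgeR adjusted p = 0.000105), Ctsb and Fabp5 fell, and Trem2 and Spp1 were not called. Among 17 T and NK cell genes, 1 rose (5.88%, against 14.9% of all genes) and 3 fell (17.6%, against 14.5%), shares below or near those of all genes. The gene that rose was Cd4, the coreceptor of helper T cells (log2 fold change 0.66 with a standard error of 0.08, edgeR adjusted p = 3.91e-05), and the lowest was Gzmb, a cytotoxic granule protease (log2 fold change -0.94 with a standard error of 0.12, edgeR adjusted p = 4.03e-05). Dendritic and Langerhans cell genes fell in 7 of 13 (53.8%, against 14.5% of all genes, and 3 in a fit to all 28 libraries) and rose in 1. Of 20 interferon-stimulated genes, 3 were higher, the share of all genes (15% against 14.9%, and 2 to 6 genes under other settings), among them the chemokine Cxcl10 (log2 fold change 0.40 with a standard error of 0.09, edgeR adjusted p = 0.00564). A further 7 were lower (35% against 14.5%, and 2 in a fit to all 28 libraries).

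Immediate-early genes, the first transcripts made after a stimulus, were lower in 11 of 14 and higher in none at the adjusted p. Nr4a1, a nuclear receptor of this class, fell most, 2.45-fold (log2 fold change -1.29 with a standard error of 0.06, edgeR adjusted p = 8.48e-09), and Junb, a subunit of the AP-1 factor, fell 1.4-fold (log2 fold change -0.49 with a standard error of 0.07, edgeR adjusted p = 9.93e-05). Other scalings of the libraries left 8 to 11 calls, and leaving out replicate 3 of day 5 left 7.

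The study concerns Mlkl, the pore-forming executioner of necroptosis. Mlkl was at 9.32, 8.61, 9.59 and 9.77 FPKM on day 3 and at 8.43, 8.49, 8.95 and 8.85 FPKM on day 5, and the difference was not called (log2 fold change -0.12, 95% interval -0.27 to 0.03, adjusted p = 0.184). Ripk3, the kinase that activates it, was 1.18-fold lower, with 19.6, 17.6, 18.1 and 17.8 FPKM and then 15.1, 15.2, 16.5 and 15.9 FPKM (log2 fold change -0.23 with a standard error of 0.06, edgeR adjusted p = 0.0072). Of 18 genes of necroptosis and pyroptosis tested, 9 fell (50%) and 2 rose (11.1%, below the 14.9% of all genes). When replicate 4 of day 5 was left out, 12 fell (66.7%, against 20.6%) and 3 rose (16.7%, against 20.1%). Gsdme, a pore-forming gasdermin, had the lowest fold change (log2 fold change -0.76 with a standard error of 0.13, edgeR adjusted p = 0.000761). Tnfaip3, the ubiquitin-editing inhibitor of NF-kB known as A20, had the highest, with 9.47, 8.52, 9.38 and 9.54 FPKM on day 3 and 16.3, 15.4, 15.3 and 13.4 FPKM on day 5 (log2 fold change 0.70 with a standard error of 0.07, edgeR adjusted p = 3.60e-06). Sycp2 and Hk3, which the study also names, were 2.41-fold and 1.33-fold lower, with adjusted p of 0.000159 and 0.000153. Sycp2 encodes a synaptonemal complex protein and Hk3 a hexokinase of myeloid cells.

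Among 13 transcripts of inflammation, repair and cell death listed as mediators, Il6 and Mmp9 fell and Tnf, Chil3 and Acta2 rose. The other 8, Arg1 among them, were not called. They include Vegfa, the main vascular growth factor, at 27.3, 29.7, 26.5 and 30.1 FPKM on day 3 and 27.9, 25.1, 25.7 and 26.4 FPKM on day 5 (log2 fold change -0.12, 95% interval -0.27 to 0.02). Of 19 genes of prostaglandin synthesis, breakdown and reception, 3 rose and 4 fell (15.8% and 21.1%, near the 14.9% and 14.5% of all genes). Ptgs2, the inducible cyclooxygenase that begins prostaglandin E2 synthesis, was at 25.2, 27.8, 27.2 and 32.2 FPKM on day 3 and 31.5, 26.7, 31.2 and 24.3 FPKM on day 5, overlapping fully (95% interval of the log2 fold change -0.22 to 0.23). Ptges, the synthase that completes it, fell 1.4-fold (log2 fold change -0.48 with a standard error of 0.06, edgeR adjusted p = 3.93e-05). Among 13 arginine and polyamine genes, 2 rose (15.4%, near the 14.9% of all genes) and 5 fell (38.5%, and 7 or 53.8% without replicate 4 of day 5), with Nos2 at the upper end and Odc1, the first enzyme of polyamine synthesis, at the lower end (log2 fold change -0.83 with a standard error of 0.06, edgeR adjusted p = 1.57e-07).

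**Figure D3:**
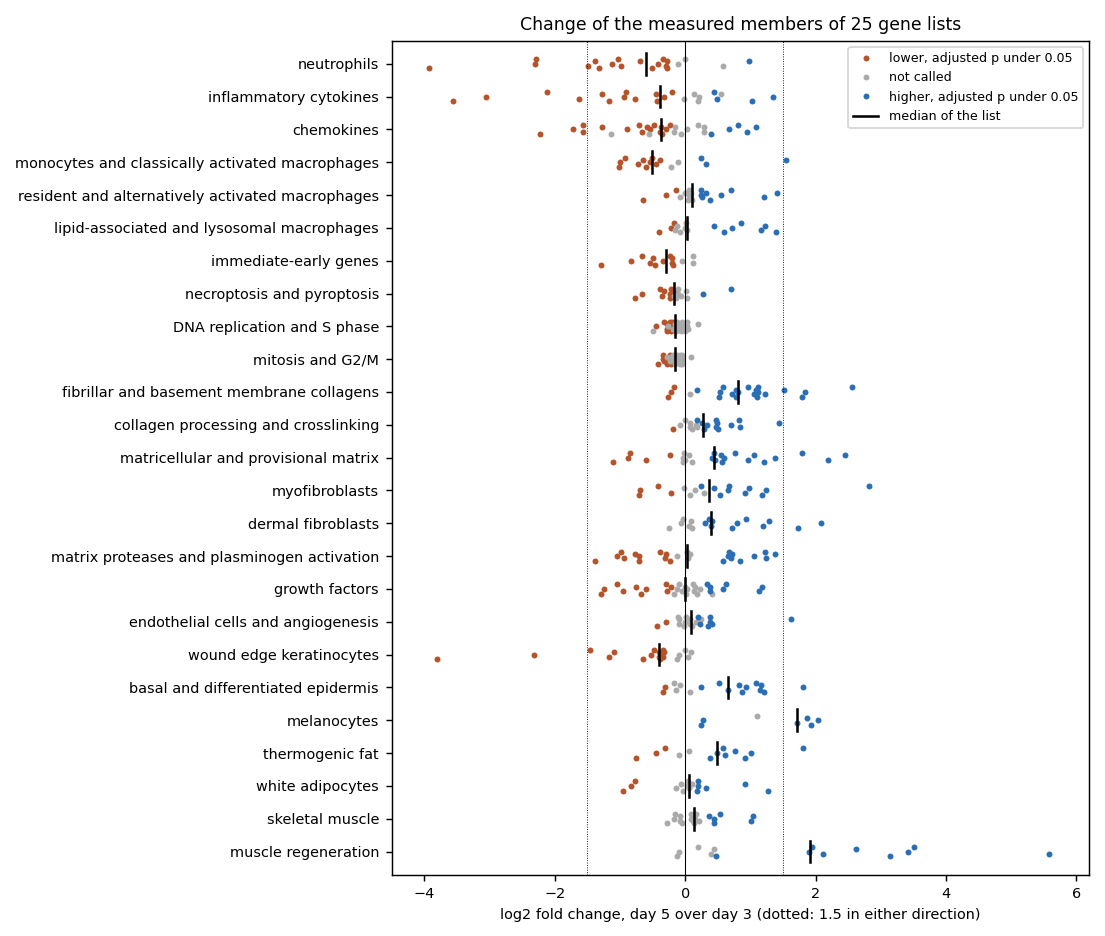
log2 fold change of day 5 over day 3 for each tested member of 25 gene lists; blue points are higher and orange points lower at an edgeR adjusted p under 0.05, grey points were not called, black ticks are list medians and dotted lines mark 1.5 in either direction. Collagens (median 0.81) and melanocyte genes (1.72) sit to the right and neutrophil genes (-0.60) to the left, while the cell cycle lists lie slightly left of 0 with no member called higher.

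Genes of the new matrix were higher on day 5. Of 23 collagens tested, 19 rose, 3 fell (1 or 2 under other scalings, and 1 without replicate 2, 3 or 4 of day 3 or replicate 2 or 3 of day 5) and 1 was not called, with a median log2 fold change of 0.81 against -0.0031 for all genes. Col1a1 and Col1a2, the chains of type I collagen, rose together. Col1a1 was at 872, 859, 776 and 762 FPKM on day 3 and 1807, 1807, 1774 and 1683 FPKM on day 5, 2.15-fold higher (log2 fold change 1.10 with a standard error of 0.06, edgeR adjusted p = 1.14e-08), and Col1a2 was 2.17-fold higher (log2 fold change 1.12 with a standard error of 0.06, edgeR adjusted p = 1.04e-08). Col3a1, the fibrillar collagen of early scars, had the highest level of the 3, at 1726, 1725, 1622 and 1620 FPKM and then 3003, 2918, 2881 and 2765 FPKM (log2 fold change 0.78 with a standard error of 0.05, edgeR adjusted p = 9.21e-08). Among the 23 collagens of the list Col11a1, which nucleates thin fibrils, rose furthest, 5.89-fold, from a low level of 0.183, 0.158, 0.141 and 0.154 FPKM to 1.03, 0.883, 0.966 and 0.913 FPKM (log2 fold change 2.56 with a standard error of 0.13, edgeR adjusted p = 1.14e-08). Col4a1 of the basement membrane went down 1.2-fold (log2 fold change -0.27 with a standard error of 0.06, edgeR adjusted p = 0.00457). In the mean log2 CPM of the list, replicate 4 of day 5 was the lowest of its day, at 8.137 against 8.331 to 8.370, and still above the 7.403 to 7.475 of day 3.

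Enzymes that process and crosslink collagen were higher in 12 of 20 (14 without replicate 4 of day 5) and lower in 1. Among the crosslinking enzymes of the Lox family, Loxl2 rose (log2 fold change 0.49, edgeR adjusted p = 3.87e-05). Lox, Loxl1, Loxl3 and Loxl4 were not called. The member that fell was Plod3 (log2 fold change -0.19, edgeR adjusted p = 0.0205). P4ha3, a prolyl hydroxylase subunit, had the highest fold change, with 2.73, 2.68, 2.93 and 3.22 FPKM and then 7.75, 8.38, 7.98 and 7.66 FPKM (log2 fold change 1.44 with a standard error of 0.08, edgeR adjusted p = 3.17e-08).

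The matricellular and provisional matrix list split, with 14 of 25 genes higher and 5 lower. Periostin (Postn), which binds collagen and integrins, stood at 114, 104, 103 and 113 FPKM on day 3 and 405, 374, 390.5 and 346 FPKM on day 5, 3.46-fold higher (log2 fold change 1.79 with a standard error of 0.06, edgeR adjusted p = 5.66e-10). Cthrc1, a secreted protein of activated fibroblasts, went from 28.9, 32.3, 27.8 and 32.1 to 132, 135, 134 and 157 FPKM, 4.57-fold (log2 fold change 2.19 with a standard error of 0.08, edgeR adjusted p = 7.19e-10). Ccn3, a matricellular protein of the CCN family, rose 5.48-fold (log2 fold change 2.45 with a standard error of 0.08, edgeR adjusted p = 5.66e-10). Fibronectin (Fn1) was 2.09-fold higher, but unevenly so. Its long transcript read 212, 212, 203 and 118 FPKM in the day 5 libraries, with replicate 4 far below the others, against 84.7, 92.5, 85.8 and 90.1 FPKM on day 3 (log2 fold change 1.06 with a standard error of 0.14, edgeR adjusted p = 7.19e-05), and without replicate 4 the log2 fold change was 1.23. Sparc, a collagen-binding glycoprotein, rose 1.51-fold (log2 fold change 0.59 with a standard error of 0.05, edgeR adjusted p = 1.26e-06), while the small proteoglycan Dcn was not called (log2 fold change 0.06, 95% interval -0.08 to 0.21).

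Among the members that fell were proteins of the early wound matrix. Tenascin C (Tnc) stood at 202, 183, 191 and 179 FPKM on day 3 and 116, 113, 112 and 82.1 FPKM on day 5, 1.8-fold lower (log2 fold change -0.85 with a standard error of 0.09, edgeR adjusted p = 9.57e-06), and the fold change was -0.74 on the log2 scale without replicate 4, its lowest library. Thbs1, the platelet and macrophage protein thrombospondin, fell 1.52-fold (log2 fold change -0.60 with a standard error of 0.09, edgeR adjusted p = 0.000129). Tnfaip6, which crosslinks hyaluronan during inflammation, had the lowest fold change of the list, with 45.5, 44.6, 44.7 and 43.8 FPKM and then 20.8, 19.4, 20.3 and 22.9 FPKM (log2 fold change -1.11 with a standard error of 0.06, edgeR adjusted p = 2.55e-08). Outside this list, tenascin N (Tnn), of the same family as Tnc, went the other way, from 2.58, 2.43, 2.5 and 2.23 to 13.1, 12.9, 12.5 and 11.2 FPKM, 5.05-fold (log2 fold change 2.34 with a standard error of 0.07, edgeR adjusted p = 5.02e-10). Mfap4, a protein of elastic microfibrils, likewise rose 5.03-fold (log2 fold change 2.33 with a standard error of 0.11, edgeR adjusted p = 7.29e-09).

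Myofibroblast genes were higher in 10 of 18 and lower in 4. Acta2, the smooth muscle actin that defines them, rose 1.45-fold, from 70.8, 68.2, 68.2 and 69.7 to 95.7, 99.7, 99.6 and 109.7 FPKM (log2 fold change 0.54 with a standard error of 0.05, edgeR adjusted p = 6.32e-06). Lrrc15, a leucine-rich repeat membrane protein of activated fibroblasts, had the highest fold change of the list. It stood at 3.77, 3.54, 3.7 and 3.93 FPKM on day 3 and 29.3, 28.2, 27.9 and 21 FPKM on day 5, 7.05-fold higher (log2 fold change 2.82 with a standard error of 0.09, edgeR adjusted p = 5.66e-10). Tgfbi, an adhesion protein induced by TGF-beta, was the lowest, 1.63-fold down (log2 fold change -0.71 with a standard error of 0.04, edgeR adjusted p = 7.54e-08). Among 17 dermal fibroblast genes, 11 rose and none fell at the adjusted p, and Dlk1, a membrane protein of immature mesenchyme, rose furthest (log2 fold change 2.08 with a standard error of 0.21, edgeR adjusted p = 6.93e-06).

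Prss35, a secreted protein of the trypsin family, had the largest increase of all genes named by the rule. It was nearly absent on day 3, with 3, 8, 8 and 14 counts, and had 579, 571, 561 and 517 counts on day 5, or 3.8, 3.8, 3.74 and 3.48 FPKM. The fitted fold change was 64.6 (log2 fold change 6.01 with a standard error of 0.20, edgeR adjusted p = 5.66e-10), and with so few reads on day 3 its size depends on single counts. Its mean level went on to 44.1 FPKM on day 7 and 92.8 FPKM on day 10.

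Matrix proteases and their inhibitors moved both ways, with 10 of 25 higher and 11 lower (5 lower in a fit to all 28 libraries). Mmp2, a gelatinase of fibroblasts and the more abundant of the gelatinases, rose 1.79-fold (log2 fold change 0.84 with a standard error of 0.06, edgeR adjusted p = 1.80e-07), and Mmp11, a stromal metalloproteinase, 2.6-fold (log2 fold change 1.38 with a standard error of 0.08, edgeR adjusted p = 4.22e-08). Mmp9, the gelatinase of myeloid cells and keratinocytes, fell 1.18-fold, with 35.8, 37, 35.5 and 35.1 FPKM and then 31.7, 30.5, 29.8 and 31 FPKM (log2 fold change -0.23 with a standard error of 0.05, edgeR adjusted p = 0.00231). Timp1, an inhibitor of metalloproteinases, fell from 471, 463, 444 and 498 to 224, 203, 215 and 277 FPKM (log2 fold change -1.04 with a standard error of 0.09, edgeR adjusted p = 1.14e-06). Mmp1b, a collagenase paralog whose reads may be split with its neighbour, had the lowest fold change (log2 fold change -1.39 with a standard error of 0.32, edgeR adjusted p = 0.00541).

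Of 30 growth factors, 7 were higher (23.3%, against 14.9% of all genes) and 10 lower (33.3%, against 14.5%), with a median of 0.0012. Epgn, a ligand of the EGF receptor made by keratinocytes, fell most, from 18.1, 15.5, 16.4 and 19.3 to 7.21, 6.13, 8.35 and 7.01 FPKM (log2 fold change -1.28 with a standard error of 0.10, edgeR adjusted p = 4.80e-07). Tgfb2 rose most, from 0.868, 0.884, 0.804 and 0.604 to 1.78, 2.16, 1.58 and 1.73 FPKM (log2 fold change 1.18 with a standard error of 0.12, edgeR adjusted p = 8.93e-06). Igf1, a product of wound macrophages, was not called (log2 fold change -0.09, 95% interval -0.25 to 0.07).

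No cell cycle gene of the lists was called higher on day 5 than on day 3 in the fit to the 8 libraries. Of 30 genes of DNA replication none was called higher and 11 were lower, and of 30 genes of mitosis none was called higher and 9 were lower. The medians were -0.15 in both lists, so that the differences were small. The count of lower replication genes was 8 to 11 under other scalings, 7 without replicate 2 of day 3 or without replicate 1, 2 or 3 of day 5, and 1 in a fit to all 28 libraries, where 3 mitosis genes were lower. With an offset for gene length, or without replicate 3 of day 3, 1 replication gene was called higher. Mki67, the usual proliferation marker, was at 13.4, 12.8, 13.4 and 12.8 FPKM on day 3 and 12.3, 12.1, 12.6 and 6.44 FPKM on day 5, and was not called (log2 fold change -0.28, adjusted p = 0.199). Its long transcript was low in replicate 4 of day 5, and without that library the log2 fold change was -0.10 (adjusted p = 0.0438). Top2a, which untangles chromosomes, was at 15.8, 15.3, 14.4 and 15.8 FPKM and then 15.9, 14.8, 15.7 and 13.6 FPKM (95% interval -0.19 to 0.11), and Pcna, the replication clamp, was not called either (log2 fold change -0.12, adjusted p = 0.0939, and -0.14 with adjusted p = 0.00768 without replicate 4 of day 5). Cdc20, an activator of the anaphase-promoting complex, fell most among the mitosis genes (log2 fold change -0.42 with a standard error of 0.07, edgeR adjusted p = 0.000276). Without replicate 4 of day 5, 14 replication and 13 mitosis genes were lower and again none was higher. At an unadjusted P under 0.05, 1 replication gene and 0 mitosis genes were higher, and DESeq2 called 0.

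Vessel genes were higher in 7 of 20 (35%, against 14.9% of all genes) and lower in 2 (10%, against 14.5%). They were 9 and 3 without replicate 4 of day 5 (45% and 15%, against 20.1% and 20.6%), and 4 and 1 without replicate 2 of day 3. Pecam1, present on all endothelial cells, was at 87.4, 92.5, 92.3 and 93.1 FPKM on day 3 and 94.6, 95.6, 89.9 and 83.5 FPKM on day 5, with overlapping days (95% interval of the log2 fold change -0.15 to 0.11). Esm1, a proteoglycan of sprouting tip cells, rose from 0.342, 0.305, 0.486 and 0.622 to 1.28, 1.49, 1.56 and 1.15 FPKM (log2 fold change 1.62 with a standard error of 0.23, edgeR adjusted p = 0.00013). Apln, a peptide that tip cells also make, fell from 12.3, 14.6, 13.1 and 14.2 to 10.1, 9.45, 10.8 and 10.3 FPKM (log2 fold change -0.43 with a standard error of 0.07, edgeR adjusted p = 0.000399). Of 10 pericyte genes, 4 rose (6 without replicate 4 of day 5) and 1 fell, and Rgs5, their usual marker, rose 1.26-fold (log2 fold change 0.34 with a standard error of 0.06, edgeR adjusted p = 0.000621).

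In the epidermis, most genes of the wound edge list fell. Of 20 wound edge keratinocyte genes tested, 15 fell (9 in a fit to all 28 libraries) and none rose at the adjusted p, with a median of -0.39. Krt6a, a keratin of migrating keratinocytes, was at 412, 341, 329.8 and 357 FPKM on day 3 and 272, 249.5, 295 and 279 FPKM on day 5 (log2 fold change -0.41 with a standard error of 0.07, edgeR adjusted p = 0.000726), and Krt17, of the same state, went from 334, 256, 268 and 267 to 177, 163, 186 and 196 FPKM (log2 fold change -0.65 with a standard error of 0.08, edgeR adjusted p = 4.17e-05). The lowest fold change of the list was that of Defb3. Defb3, an antimicrobial beta-defensin, dropped from 26.2, 18.7, 22.9 and 22.4 to 2.00, 1.79, 1.09 and 1.58 FPKM, 14-fold (log2 fold change -3.81 with a standard error of 0.19, edgeR adjusted p = 9.39e-09). Outside this list, several genes known from keratinocytes were among the largest decreases, and in which cells they were transcribed was not measured. Serpinb3a, a protease inhibitor of squamous epithelia, was 6.96-fold lower (log2 fold change -2.80 with a standard error of 0.13, edgeR adjusted p = 7.38e-09), and its paralog Serpinb3b 3.92-fold. Sprr2b, of the cornified envelope, was 6.9-fold lower (log2 fold change -2.79 with a standard error of 0.15, edgeR adjusted p = 1.72e-08). Reads may be shared between the near-identical members of the Sprr2, Serpinb3 and beta-defensin families, and values of single members are uncertain to that extent. Alox8, a lipoxygenase, was 10.2-fold lower (log2 fold change -3.36 with a standard error of 0.12, edgeR adjusted p = 8.63e-10), Has3, a hyaluronan synthase of keratinocytes, 3.89-fold (log2 fold change -1.96 with a standard error of 0.13, edgeR adjusted p = 1.20e-07), and Atp12a, a proton pump, 4.83-fold (log2 fold change -2.27 with a standard error of 0.12, edgeR adjusted p = 1.73e-08).

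Of 17 genes of basal and differentiated epidermis, 11 rose and 2 fell, with a median of 0.65. Krt1 and Krt10, the keratin pair of the suprabasal layers, rose together. Krt1 was at 129.6, 101, 95.7 and 92.2 FPKM on day 3 and 242, 219, 241 and 236 FPKM on day 5 (log2 fold change 1.16 with a standard error of 0.09, edgeR adjusted p = 4.85e-07), and Krt10 ranged from 34.7 to 50.3 FPKM on day 3 and from 86.5 to 100.5 FPKM on day 5 (log2 fold change 1.21 with a standard error of 0.09, edgeR adjusted p = 5.73e-07). Flg, the filaggrin of the granular layer, had the highest fold change, from 2.1, 1.46, 1.26 and 1.37 to 6.58, 5.4, 6.33 and 3.6 FPKM (log2 fold change 1.81 with a standard error of 0.18, edgeR adjusted p = 5.30e-06), with replicate 4 the lowest of day 5. The keratins of the basal layer differed among themselves. Krt15, also found in hair follicle stem cells, rose from 66.2, 57, 52.2 and 47.2 to 123, 120.5, 129 and 128 FPKM (log2 fold change 1.16 with a standard error of 0.08, edgeR adjusted p = 2.37e-07). Krt5 fell 1.24-fold (log2 fold change -0.31 with a standard error of 0.08, edgeR adjusted p = 0.00754) and Krt14 was not called (log2 fold change -0.13, 95% interval -0.34 to 0.07), and Trp63, the transcription factor of basal cells, had the lowest fold change (log2 fold change -0.34 with a standard error of 0.09, edgeR adjusted p = 0.0123).

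Of 10 melanocyte genes, 7 had enough reads to be tested and 6 of these rose, a count that describes the tested genes only. Their median was 1.72, and 0.60 on the scale of log2(FPKM + 1), which compresses low levels. Tyrp1 and Dct, enzymes of melanin synthesis, were at low levels. Tyrp1 had 0.289, 0.379, 0.404 and 0.198 FPKM on day 3 and 1.12, 1.29, 1.52 and 1.37 FPKM on day 5 (log2 fold change 2.04 with a standard error of 0.21, edgeR adjusted p = 7.80e-06), and Dct 1.11, 0.816, 0.859 and 1.1 FPKM and then 3.48, 3.47, 4.09 and 3.31 FPKM (log2 fold change 1.87 with a standard error of 0.13, edgeR adjusted p = 2.73e-07). By day 14 their means were 83.6 and 121 FPKM. Sebaceous gland genes rose in 8 of 12 and fell in 2, with the wax synthase Awat2 at the top (log2 fold change 1.35 with a standard error of 0.10, edgeR adjusted p = 3.60e-07). Hair follicle genes rose in 5 of 17 (3 without replicate 1 of day 5, and 1 to 7 over all other settings) and fell in none at the adjusted p (1 without replicate 4 of day 5), and 9 of the 17 had a mean of less than 1 CPM.

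Several genes of regenerating muscle were nearly silent on day 3. Of 14 such genes tested, from a list of 15, 9 were higher at the adjusted p, 8 of them by the study's criteria, and none was lower. With at least 10 counts in every library, 5 were higher and the list's median fell from 1.92 to 0.48. Several pass the filter on low counts only through day 5, so this count is a description and no support for the list as a whole. Myh3, the embryonic myosin heavy chain made by newly fused fibres, had 14, 9, 14 and 4 counts on day 3 and 496, 548, 517 and 472 counts on day 5, that is 2.03, 2.27, 2.15 and 1.98 FPKM, and a fitted fold of 47.6 (log2 fold change 5.57 with a standard error of 0.19, edgeR adjusted p = 7.19e-10). Mymk, the membrane protein that fuses myoblasts, had 6, 9, 9 and 10 counts and then 98, 94, 72 and 116 counts (log2 fold change 3.42 with a standard error of 0.27, edgeR adjusted p = 6.10e-07). Chrng, the gamma subunit of the embryonic acetylcholine receptor, had 9, 2, 2 and 3 counts and then 36, 37, 34 and 42 counts (log2 fold change 3.14 with a standard error of 0.41, edgeR adjusted p = 6.50e-05). Actc1, the actin of developing muscle, was at a higher level, with 2.09, 2.95, 2.62 and 2.42 FPKM and then 10.8, 10.5, 9.7 and 13.2 FPKM (log2 fold change 2.12 with a standard error of 0.13, edgeR adjusted p = 5.67e-08). Chrna1, the receptor subunit shared by embryonic and adult muscle, was not called (log2 fold change -0.13, 95% interval -0.41 to 0.16).

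Of 20 genes of mature muscle, 6 rose (30%, against 14.9% of all genes) and none fell at the adjusted p. In the 7 libraries without replicate 4 of day 5, 9 rose (45%, against 20.1%) and 1 fell, in a fit to all 28 libraries 3 rose, and with a replicate block and a length offset 2 fell. Their mean log2 CPM ranged from 7.236 to 7.564 on day 3 and from 7.590 to 7.731 on day 5. Acta1, the adult skeletal actin, was not called (log2 fold change -0.18, adjusted p = 0.187), nor was Myh4, a fast myosin (log2 fold change 0.15, adjusted p = 0.156). Without replicate 4 of day 5 both were called, Acta1 lower at -0.24 (adjusted p = 0.0187) and Myh4 higher at 0.20 (adjusted p = 0.00634). Tnnt1, the slow troponin T, rose 2.06-fold (log2 fold change 1.04 with a standard error of 0.14, edgeR adjusted p = 9.66e-05). Ttn, the longest of these transcripts, was at 1.67, 1.82, 1.94 and 1.72 FPKM and then 1.75, 1.82, 1.62 and 0.758 FPKM, where the last value is replicate 4.

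The promoters of Chrng and Tnnt2 are shown because both genes rose and both hold a pair of CAGCTG motifs, an E-box bound by the myogenic factors of the MyoD family. Tnnt2, the troponin T of embryonic muscle and heart, had 1.12, 1.33, 0.916 and 1.37 FPKM on day 3 and 3.79, 4.39, 4.6 and 5.59 FPKM on day 5 (log2 fold change 1.94 with a standard error of 0.17, edgeR adjusted p = 1.43e-06). The 100 bases printed lie at chr1:87205646-87205745 for Chrng and at chr1:135836101-135836200 for the upstream start of Tnnt2 (GRCm38.p6, plus strand, before the first exon), with the motif in capitals.
Chrng: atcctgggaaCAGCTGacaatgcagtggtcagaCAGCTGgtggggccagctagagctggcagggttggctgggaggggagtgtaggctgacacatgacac
Tnnt2: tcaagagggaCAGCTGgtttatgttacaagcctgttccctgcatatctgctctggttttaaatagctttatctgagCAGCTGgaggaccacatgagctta
CAGCTG reads the same on both strands and stood in 4271 of 32851 promoters (13%). Of the 11 tested muscle regeneration genes in the promoter table it stood in 4, of which Chrng and Tnnt2 rose and Chrna1 and Musk were not called. It stood in 8 of 16 promoters of mature muscle genes, of which 2 rose. The promoters of Myh3 and of Prss35 did not hold these letters in the 250 bases searched, from which nothing follows about the factors.

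The list of thermogenic fat shifted upward. Of 13 genes of thermogenic fat, 8 rose and 3 fell, and the mean log2 CPM of the list ranged from 5.738 to 5.994 on day 3 and from 6.266 to 6.346 on day 5. Those that fell were Pdk4, Dio2 and Cox8b (log2 fold change -0.75, -0.44 and -0.31, edgeR adjusted p = 2.64e-06, 0.00251 and 0.0356). Ucp1, the uncoupling protein of brown fat, was at 422, 541, 557 and 546 FPKM on day 3 and 983, 1031, 1059 and 1142 FPKM on day 5 (log2 fold change 1.01 with a standard error of 0.09, edgeR adjusted p = 1.34e-06). Its mean was 0.423 FPKM on day 0. Fabp3, a fatty acid binding protein of oxidative tissues, rose 3.48-fold, from 31.7, 41.2, 41.1 and 41.2 to 126, 133, 135 and 152 FPKM (log2 fold change 1.80 with a standard error of 0.09, edgeR adjusted p = 1.37e-08). The white adipocyte list had a median of 0.05. Of its 16 genes, 6 rose (37.5%, and 3 genes in a fit to all 28 libraries), 3 fell (18.8%, near the 14.5% of all genes, and 5 genes or 31.2% without replicate 4 of day 5) and 7 were not called, with Gpd1, the glycerol phosphate dehydrogenase, at the top (log2 fold change 1.27 with a standard error of 0.07, edgeR adjusted p = 4.57e-08) and Adrb3, the adrenergic receptor of fat, at the bottom (log2 fold change -0.96 with a standard error of 0.09, edgeR adjusted p = 4.27e-06). Replicate 1 of day 3 was the lowest of all 8 libraries in Ucp1, Fabp3 and Gpd1. How much muscle and fat each piece of tissue held was not measured, and its part in these values was not tested.

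Glycolysis and hypoxia genes had 4 of 25 higher and 6 lower (16% and 24%, against 14.9% and 14.5% of all genes). Without replicate 4 of day 5 they had 7 higher and 8 lower (28% and 32%, against 20.1% and 20.6%). Slc16a3, the lactate exporter, was 1.69-fold lower (log2 fold change -0.75 with a standard error of 0.07, edgeR adjusted p = 2.04e-06). Respiratory chain genes had 1 of 24 higher and 1 lower, and ribosomal protein genes none of 34 in either direction. Under other settings, up to 4 genes of each of these lists were called higher. These short transcripts moved with replicate 4 of day 5, whose mean log2 CPM of ribosomal proteins was 9.398 against 9.145 to 9.173 in its day mates, and without it 7 respiratory chain genes (29.2%) and 7 ribosomal protein genes (20.6%, the share of all genes) were called lower. Of the lists kept for other cell types and for stress, Schwann cell genes rose in 3 of 12 (25%) and fell in none (1 without replicate 4 of day 5), mast cell genes rose in 5 of 9 (55.6%) and fell in 1 (11.1%), erythroid transcripts fell in 3 of 8 (37.5%, and 75% without replicate 4 of day 5, against 20.6%) and rose in none, and heat shock genes rose in 2 of 12 (16.7%, against 14.9% of all genes) and fell in none (2 without replicate 4 of day 5). In every list with no edgeR call in a direction, DESeq2 called 0 as well, and 0 or 1 members had an unadjusted P under 0.05 in that direction.

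Several of the largest changes belonged to no list. Inmt, a methyltransferase of connective tissue, went from 0.678, 1.91, 2.05 and 1.4 to 11.1, 10.7, 13.9 and 14.2 FPKM (log2 fold change 3.03 with a standard error of 0.23, edgeR adjusted p = 4.21e-07) and was at 53 FPKM on day 0. Cyp2e1, a cytochrome P450 of fat and liver, went from 50.9, 49.9, 44.9 and 39.4 to 202, 192, 188 and 199 FPKM (log2 fold change 2.06 with a standard error of 0.07, edgeR adjusted p = 7.19e-10), with 762 FPKM on day 0. Defb8, Serpinb6d and Orm2, all members of gene families between which reads may be shared, rose 4.66-fold, 5.6-fold and 4.51-fold. Gnal, a G protein subunit, Acat3, an acetyl-CoA acetyltransferase, and Uox, the urate oxidase, fell 4.71-fold, 5.12-fold and 3.8-fold.

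**Figure D4:**
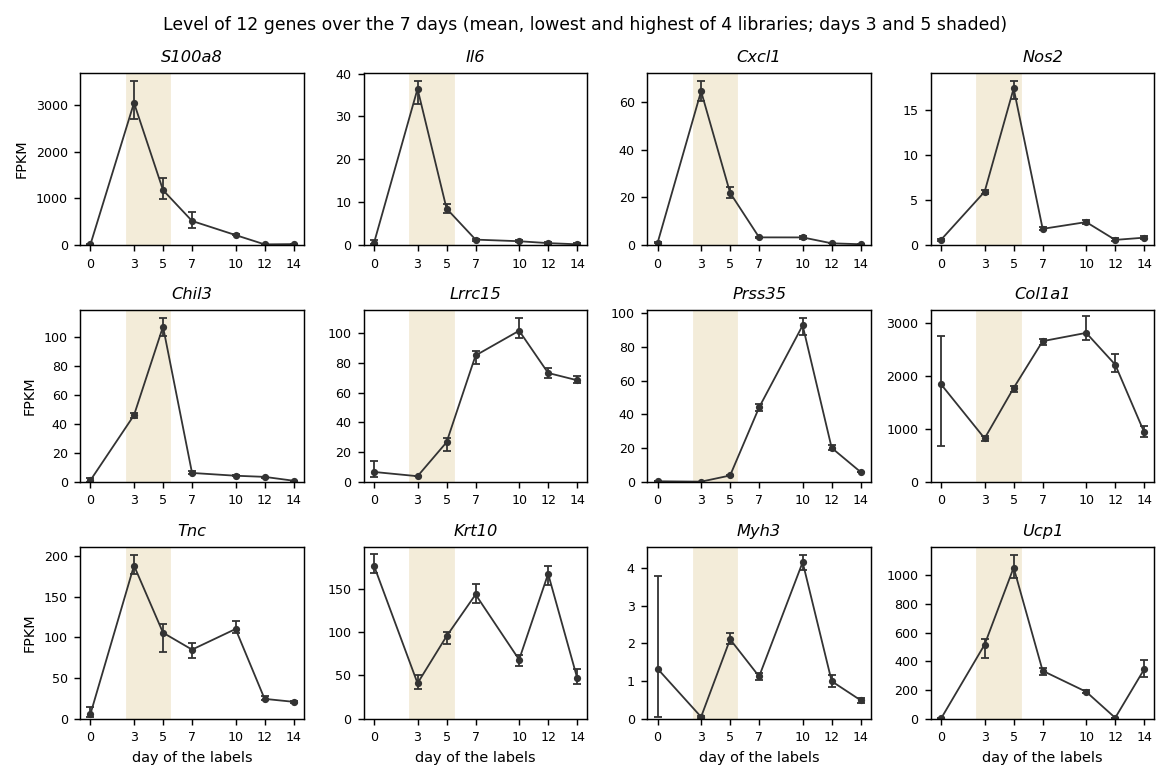
Mean FPKM of 12 genes over the 7 days of the labels (points), with the lowest and highest of 4 libraries as bars; days 3 and 5 are shaded. S100a8, Il6, Cxcl1 and Tnc are highest on day 3, Nos2, Chil3 and Ucp1 on day 5, and Lrrc15, Prss35 and Col1a1 on day 10.

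The genes that fell and those that rose are set here in the whole course. Of the 100 genes lower on day 5 by the study's criteria, 95 had been higher on day 3 than on day 0 (95%, against 47.3% of all genes tested), and 89 had their highest wound level, from day 3 to day 14, on day 3 (89%, against 19.8%). Of the 213 genes higher on day 5, 172 had been lower on day 3 than on day 0 (80.8%, against 52.7%). Their highest wound level came on day 5 in 49 (23%, against 7.64% of all genes) and on day 7 or later in 77% (against 72.6%). Levels on day 3 and day 5 entered the choice of these genes, so these shares are descriptions. Nos2 had means of 5.92, 17.4 and 1.79 FPKM on days 3, 5 and 7, and Chil3 of 45.9, 107 and 6.08 FPKM, so that both peaked on day 5. Lrrc15 had means of 85.1 FPKM on day 7 and 102 FPKM on day 10, and Col1a1 of 2651 and 2807 FPKM. Myh3 had 1.32 FPKM on day 0, in libraries that ranged widely, and 4.15 FPKM on day 10. Whether a course differs between genes was not tested.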

How the data were processed

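RNA of whole wounds was sequenced, and 8 libraries, 4 per day, enter the comparison. The deposited counts are whole reads per gene symbol. Per the labels the authors trimmed reads with fastp and used the mm10 build and R 3.2.0, while aligner, counting tool, annotation and strand setting are not given in the sources used here. The authors' FPKM equal the counts divided by a fixed gene length and the library total within 1%, for 100% of values above 0. FPKM are printed as levels and counts were tested.

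Day 5 was compared with day 3 by the quasi-likelihood test of edgeR 4.0.16 (R 4.3.3), on the 8 libraries, with TMM scaling, the filterByExpr filter and Benjamini-Hochberg adjustment over 16307 genes. Of the other symbols, 3047 had no count in these libraries and 9714 had too few. Called means an adjusted p under 0.05. Intervals are 95% intervals from the fitted standard error and 6 residual degrees of freedom. The edgeR test uses more degrees of freedom, so that the intervals are wide beside its p-values. Fold changes are those of the fit. In counts simulated for these 8 libraries (16152 genes, few of them given a known change), 49 of 67 1.5-fold (73.1%), 64 of 67 2-fold (95.5%) and 66 of 66 4-fold changes (100%) were recovered. limma 3.58.1, DESeq2 1.42.0 and other settings were run as alternatives, 25 in all.

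The genes named are the 15 largest increases and decreases that met the study's criteria and the adjusted p, did not overlap and reached a mean of 10 CPM on 1 day. Most others come, for each list, from the 3 members with the highest CPM and from its highest and lowest fold change. The fold changes were ranked among members with a mean of at least 1 CPM. The genes the study measured are a further source, and not all genes that the rule covers are printed. Cxcr2, Cxcl1, Cxcl2, Cxcl3, Csf1, Postn, Fn1, Tnc, Timp1, Krt1, Krt15, Krt17, Mymk, Chrng and Tnnt2 were named after their values were seen. So were Mmp8, Il1r2, Fpr1, Ltf, G0s2, Ctsb, Fabp5, Trem2, Spp1, Lox, Loxl1, Loxl2, Loxl3, Loxl4, Dio2 and Cox8b. The comparison, its members and the gene lists were chosen with earlier results of these data known. Promoter sequences and gene starts are those of RefSeq (GRCm38.p6). Counts carry no molecular identifiers, and gene families with near-identical members are uncertain. Some genes are not reported here.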

Additional observations from a re-analysis of the deposited data

Results flagged for a closer look

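Of 352 groups of 4 libraries examined (a gene or a list on 1 day), 23 held a library farther from the other 3 than Dixon's 95% limit, where chance gives about 1 in 20, or 18. Of the 23, 13 concerned replicate 4 of day 5, whose reads shifted toward short genes. All values here are log2 CPM.

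Replicate 4 of day 5 was low in long transcripts of the matrix, the cell cycle and muscle. Fn1 was at 9.974 against 10.74 to 10.81 in its day mates, Tnc at 9.309 against 9.738 to 9.795, Mki67 at 6.055 against 6.94 to 7.003, Ttn at 6.488 against 7.563 to 7.727 and Lrrc15 at 6.834 against 7.221 to 7.299. The collagen list was at 8.137 against 8.331 to 8.37. It was high in Apoe (11.85 against 11.63 to 11.65), Cthrc1 (7.528 against 7.264 to 7.282) and Ifitm1 (6.436 against 6.131 to 6.164). It was likewise high in the means of ribosomal proteins (9.398 against 9.145 to 9.173), the respiratory chain (8.123 against 7.908 to 7.941), lipid-associated macrophages (8.8 against 8.7 to 8.71) and dermal fibroblasts (6.883 against 6.765 to 6.781).

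Replicate 1 of day 3 was low in fat genes, with Ucp1 at 9.426 against 9.801 to 9.852, Gpd1 at 9.733 against 10.05 to 10.11 and Fabp3 at 4.421 against 4.817 to 4.833. The same library was high in the wound edge list (6.317 against 6.096 to 6.114), Atp12a (5.217 against 4.721 to 4.775), the dendritic cell list (5.342 against 5.182 to 5.203) and Pcna (6.754 against 6.665 to 6.672). Replicate 4 of day 3 was high in S100a9 (11.61 against 11.23 to 11.3) and in the necroptosis list (5.653 against 5.598 to 5.602), and replicate 2 of day 5 was low in Krt1 (9.053 against 9.184 to 9.206).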

How the results depend on the processing

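The counts by the study's criteria (213 higher, 100 lower) moved with the filter on low counts, to 688 and 318 with none and to 112 and 60 with at least 10 counts in every library. Under settings that change several choices at once, they were 514 and 201 by DESeq2, 32 and 27 by limma on log2(FPKM + 1) with or without a mean FPKM of at least 1, and 125 and 61 on log2(FPKM + 0.1). They were 403 higher with edgeR on all 28 libraries, 418 higher on the 24 wound libraries, and 1239 and 751 with a fold change limit of 1.5 in place of the log2 limit. Leaving out 1 library at a time gave 228 to 285 higher and 95 to 125 lower by these criteria, and 1985 to 3324 higher and 1886 to 3400 lower at the adjusted p, where both maxima came without replicate 4 of day 5. An offset for gene length gave 3082 and 2646.

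Deviations of same-numbered libraries of the days correlated at 0.00827 to 0.0488. Correlations between differently numbered libraries were not computed, so whether replicate numbers pair the samples was not tested. A fit with the replicate number as a block gave 215 and 101 genes by the study's criteria and 2370 and 2302 at the adjusted p, and with the length offset added 227 and 94, and 3014 and 2602.

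Over genes with a mean of at least 100 counts, the correlation of deviation with gene length was 0.4738, 0.4875 and 0.3943 in replicates 1 to 3 of day 5 and -0.6943 in replicate 4. Over all 16307 genes, the correlation of the fold change with length was 0.174 without replicate 4 of day 5, against 0.0402 with it. Genes with a fold change near 0 changed sign. The log2 fold change of Top2a was 0.00218 without replicate 4 of day 5 and -0.07197 without replicate 1. The log2 fold change of Pecam1 was 0.007411 under upper quartile scaling, and from -0.04489 to 0.01707 with 1 library left out. The log2 fold change of Ptgs2 was -0.005352 without a filter, -0.0009183 by DESeq2, -0.001076 on 28 and -0.0003953 on 24 libraries, and from -0.05269 to 0.07873 with 1 library left out. None of these 3 was called in the fit of the report, and the cause was not tested.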
